A study of Mus musculus with 4 samples.

Results

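Xcl1, Ccl5, Ccl3 and Ccl4, which encode chemokines that lymphocytes secrete, and Xcr1, which encodes the receptor for the Xcl1 product, were followed in immune cells of the mouse mammary gland. These 5 genes were taken by name, out of 55253 genes shared by both gene count tables, and their raw molecule counts (unique molecular identifiers, UMIs) were read in cell groups set by the UMIs of Cd3e, Cd4, Cd8b1, Ncr1, Clec9a and Cd209a. Every cell came from a mammary gland digested with collagenase, carried the leukocyte surface protein CD45, and was sequenced in 1 of 2 pooled single-cell libraries, called library 1 (the earlier by its title) and library 2. Within a library, an oligonucleotide hash tag gave each cell its sample. Library 1 held the tag names Nulliparous (never pregnant), Gestation, Lactation and Germ-free, and library 2 held Gestation, Lactation, Involution (the gland regressing after weaning), Regression, Balb/c, Germ-free and GF. The name Germ-free on tag HT2 is in doubt in both libraries, because the title of library 1 lists involution and no germ-free sample, and the title of library 2 lists a nulliparous sample and a GF sample, which has a tag of its own. Those 2 samples are therefore called by their tag, HT2. Each name was 1 sample in a library. Not given in the sources used here are the number and age of the animals behind a tag, the strain of those not named Balb/c, and the stage at which the animals named Balb/c and GF were taken.

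XCL1 is a C-class chemokine released by natural killer (NK) cells and activated CD8 T cells, and its receptor XCR1 marks type 1 conventional dendritic cells, the cells that take up dead-cell material and present it to CD8 T cells. CCL3, CCL4 and CCL5 are CC-class chemokines that attract T cells, NK cells, monocytes and dendritic cells. CCL3 and CCL5 act on CCR1, among other receptors, and CCL5 also acts on CCR3.

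By the RefSeq annotation of the mouse build GRCm38.p6, Xcl1 (ENSMUSG00000026573.7) spans chr1:164931644-164935522 and Xcr1 (ENSMUSG00000060509.5) spans chr9:123852315-123862029. The 3 CC ligands lie close together on chromosome 11, with Ccl5 (ENSMUSG00000035042.2) at chr11:83525778-83530518, Ccl3 (ENSMUSG00000000982.5) at chr11:83647843-83649378 and Ccl4 (ENSMUSG00000018930.3) at chr11:83648624-83664683. The annotated spans of Ccl3 and Ccl4 share 755 bases, and whether reads of 1 were counted for the other was not tested. The table of RefSeq promoters held 3 of the 5 members (Xcl1, Ccl3 and Xcr1). The 250 bases before the start of Xcl1 and of Ccl3 are printed because both ligands were higher in the NK gate than in CD8 T cells, described below, and Ccl3, but not Xcl1, was called between the NK and Cd3e+Ncr1+ gates. Both genes lie on the minus strand, the sequences read 5′ to 3′ along the gene, and the capitals mark motif matches.
Xcl1 promoter, chr1:164935523-164935772: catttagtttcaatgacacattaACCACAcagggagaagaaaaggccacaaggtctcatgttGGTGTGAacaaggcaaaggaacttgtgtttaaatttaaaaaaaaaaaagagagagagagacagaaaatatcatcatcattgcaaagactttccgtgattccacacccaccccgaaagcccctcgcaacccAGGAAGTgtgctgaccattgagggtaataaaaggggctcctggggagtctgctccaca
Ccl3 promoter, chr11:83649379-83649628: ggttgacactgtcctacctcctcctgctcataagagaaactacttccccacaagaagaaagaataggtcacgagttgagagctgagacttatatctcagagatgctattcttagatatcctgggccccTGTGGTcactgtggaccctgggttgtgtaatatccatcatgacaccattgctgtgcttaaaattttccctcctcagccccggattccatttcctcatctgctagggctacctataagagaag
In the Xcl1 promoter the capitals mark the RUNX motif TGTGGT on the opposite strand (read here as ACCACA, beginning 227 bases before the start), the T-box motif GGTGTGA (188 bases before) and the ETS motif AGGAAGT (58 bases before). In the Ccl3 promoter they mark 1 RUNX match, 122 bases before the start. Searched on both strands in windows of the same length, GGTGTGA occurred in 3.33% of 32851 promoters, TGTGGT in 14.05% and AGGAAGT in 7.69%. The NF-kB motif (GGG and CC with 5 bases of any kind between, in 45.8% of promoters), the AP-1 motif TGANTCA (6.75%) and the interferon response motif (GAAA, 2 bases of any kind, GAAA; 2.98%) had no match in either window, and none of the 6 motifs matched in the Xcr1 window. A match describes the letters only.

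After filtering, 21604 cells of library 1 and 21177 of library 2 were kept, with a median of 1599 and 3049 UMIs per cell, and 139 cell barcodes occurred in both libraries. A single tag and no doublet call were found for 29899 cells, of which 12423 fell into the 7 lymphocyte and dendritic gates. The NK gate (Ncr1 UMI, no Cd3e UMI) held 1560 and 1561 cells in library 1 and library 2, and 64.3% and 66.9% of them carried a UMI of Klrb1c, an NK and ILC1 marker. The Cd3e+Ncr1+ gate held 205 and 525 cells. The 6 T cell markers summed to 32.0 and 30.2 per 10000 UMIs there. They summed to 8.11 and 8.04 in the NK gate and to 0.507 and 0.619 in B cells. A T cell with an Ncr1 UMI whose Cd3e went undetected falls in the NK gate. The part of such cells in comparisons of these gates was not tested. The CD8 gate (Cd3e and Cd8b1, no Cd4 or Ncr1) held 625 and 1333, and the CD4 gate (Cd3e and Cd4, no Cd8b1 or Ncr1) held 183 and 665. The largest gate, Cd3e without Cd4, Cd8b1 or Ncr1, called Cd3e-only, held 2347 and 2214 cells. It is a mixture by its markers: the T cell receptor gene Trac had a UMI in 38.0% and 61.1% of its cells, the γδ T cell gene Trdc in 10.3% and 15.4%, and Klrb1c in 25.9% and 19.5%. The Clec9a gate held 215 and 215 cells and the Cd209a gate 290 and 485, neither with Cd3e, Ncr1 or Cd8b1 UMIs. B cells with Cd79a and Ms4a1 UMIs and no gate gene (805 and 2503 cells) served as the background.

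Levels are UMIs of the gene per 10000 UMIs of the gate's cells, with exact Poisson 95% intervals that cover counting error only. Depth differed between gates and libraries, so a share of cells with a UMI is given with that of the B cells, whose median depth was 912 UMIs in library 1 and 2035 in library 2, against 1489.5 and 3103 in the NK gate. Free RNA was measurable in library 1, where 745988 barcodes under 100 UMIs held Ccl5 at 20.1, Ccl4 at 1.69, Xcl1 at 1.16, Ccl3 at 0.734 and Xcr1 at 0.0470 per 10000 UMIs. The B cell gate of that library was lower for each member, with Ccl5 at 1.01, Ccl4 at 0.129, Xcl1 at 0.0696, Ccl3 at 0.0894 and Xcr1 at 0.0199 per 10000. Gates were compared across the 11 tagged samples (4 in library 1, 7 in library 2), each sample being its own block, with edgeR's quasi-likelihood test and Benjamini-Hochberg adjustment over all genes tested; a gene was called at an adjusted p below 0.05. Contrasts that contain the CD8 gate share its sums.

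Xcl1 was highest in the gates with Ncr1 UMIs. In the NK gate its level in the library 1 samples was 4.51 (HT2), 8.15 (Nulliparous), 8.52 (Gestation) and 9.03 (Lactation) per 10000 UMIs, and in the library 2 samples it ran from 6.47 (Regression) through a median of 16.2 to 23.1 (Balb/c). A UMI of Xcl1 was found in 50.4% and 70.9% of NK gate cells, against 0.248% and 3.60% of B cells. The Cd3e+Ncr1+ gate lay in the same range, at 5.32, 13.8, 7.33 and 10.3 in the library 1 samples in the same order and 9.94 to 20.7 in library 2, with a median of 14.9. The gates overlapped: NK was higher in 5 samples and lower in 6, with a log2 difference of -0.07 (SE 0.10, edgeR Benjamini-Hochberg adjusted p = 0.825, n = 11 samples). Single samples lay apart in both directions. The Poisson intervals were 7.50 to 8.84 in NK and 12.15 to 15.5 in Cd3e+Ncr1+ for Nulliparous, and 22.4 to 23.9 and 14.8 to 16.7 for Balb/c.

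In CD8 T cells Xcl1 was lower. The library 1 samples held 0.591, 1.48, 1.54 and 4.30 Xcl1 UMIs per 10000, in the same order, and the library 2 samples 0.556 (Regression) to 3.0 (GF), with a median of 2.01. NK exceeded CD8 in 11 of 11 samples, by 2.68 on the log2 scale (SE 0.16, edgeR Benjamini-Hochberg adjusted p = 8.49e-12), with 2.02 in library 1 alone and 2.98 in library 2 alone. Of the 6535 genes tested in that contrast 27.9% were called, 14% higher and 14% lower, so a call there is common, and Xcl1, Ccl3, Ccl4 and Ccl5 were all among them as higher in NK.

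The Cd3e-only gate held more Xcl1 than CD8 T cells. Its levels were 1.20, 6.05, 5.89 and 9.47 per 10000 UMIs in the library 1 samples and 1.70 (Regression) to 11.2 (Lactation) in library 2, with a median of 6.11. It was above CD8 in 11 of 11 samples, by 1.59 on the log2 scale (SE 0.10, edgeR Benjamini-Hochberg adjusted p = 2.45e-10), in a contrast where 13% of 7111 genes were called (6.64% higher, 6.38% lower). With no test of these pairs, it lay below Cd3e+Ncr1+ in 11 of 11 samples, below NK in 10 of 11 and above CD4 in 11 of 11. CD4 T cells were at the bottom of the lymphocyte order, with 1.08, 0.583, 0.567 and 7.71 per 10000 in the library 1 samples and 0.239 (GF) to 3.17 (Lactation) in library 2, median 0.870. CD8 and CD4 were not separated by the test for Xcl1, which was higher in CD8 in 8 of 11 samples (log2 difference 0.79, SE 0.28, edgeR Benjamini-Hochberg adjusted p = 0.0748). Among dendritic gates, Xcl1 stood at 0.0395 and 0.0559 per 10000 UMIs in the Clec9a gate (3 and 10 UMIs) and 0.161 and 0.0956 in the Cd209a gate, near the 0.0696 and 0.156 of the B cells.

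**Figure D1:**
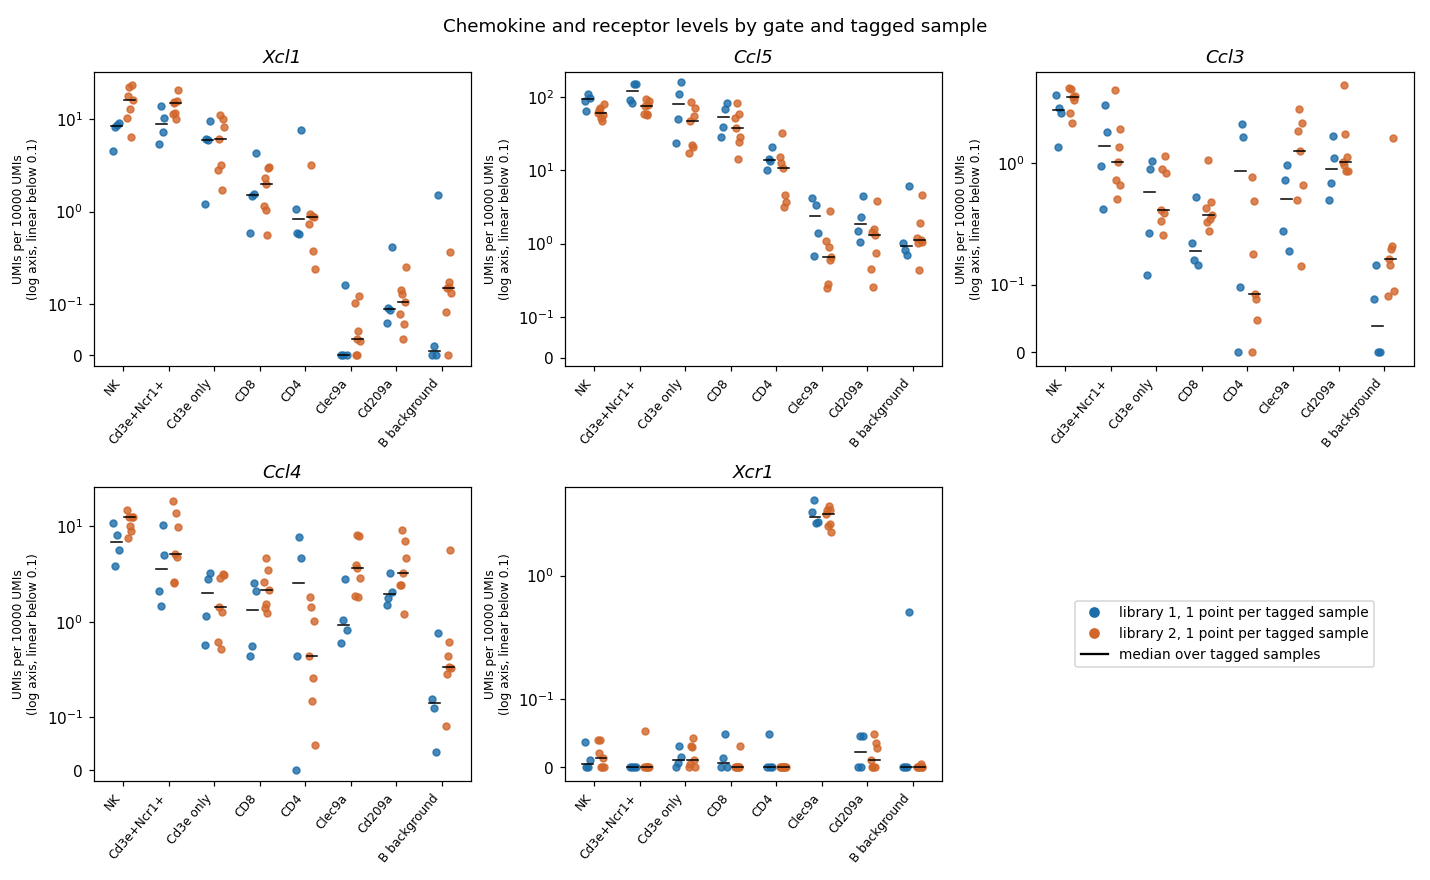
Level of each member (UMIs per 10000 UMIs of the gate's cells, symmetric log axis, linear below 0.1) in the 8 gates. Each point is 1 tagged sample with at least 10 cells in the gate (blue library 1, orange library 2), and the black bar is the median of a library's samples; Xcl1 was highest in NK and Cd3e+Ncr1+. Xcr1 lay between 2.26 and 4.08 in the Clec9a gate and near 0 elsewhere, except at 0.509 (2 UMIs in 1 of 29 cells) in the B cells of the library 1 Lactation sample.

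Xcl1 molecules were unevenly spread within a gate. In NK, the 10% of cells with most Xcl1 held 52.7% of its UMIs in library 1 and 53.7% in library 2, and the highest cell held 43 and 166 UMIs. Of all Xcl1 UMIs in tagged cells, 27.0% and 43.6% were in the NK gate, 32.4% and 22.1% in Cd3e-only and 6.19% and 17.0% in Cd3e+Ncr1+, while 31.2% and 10.8% were in cells outside every gate. NK and Cd3e-only cells together therefore held most of the gated Xcl1 molecules in both libraries.

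Ccl5 covered a wider set of T cells than Xcl1. In the NK gate the library 1 samples held 88.0 (HT2), 65.0 (Nulliparous), 110.1 (Gestation) and 97.1 (Lactation) Ccl5 UMIs per 10000, and the library 2 samples 46.9 (Regression) to 79.8 (GF), with a median of 60.6. A Ccl5 UMI was found in 95.9% and 92.4% of NK gate cells, against 8.94% and 21.6% of B cells. The Cd3e+Ncr1+ gate had the highest median of the gates in both libraries, at 90.3, 82.1, 149.7 and 150.9 per 10000 in library 1 and 56.1 to 93.6 in library 2. NK was below it in 10 of 11 samples, by -0.30 on the log2 scale (SE 0.06, edgeR Benjamini-Hochberg adjusted p = 0.00202); this contrast called 6.56% of 5759 genes, 3.26% as higher and 3.3% as lower. Fitted without the sample block, that difference was not called (edgeR Benjamini-Hochberg adjusted p = 0.629).

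Among T cells Ccl5 differed with the coreceptor gene of the gate. CD8 cells held 28.5, 38.5, 67.7 and 83.9 Ccl5 UMIs per 10000 in the library 1 samples and 14.2 (Involution) to 83.1 (Lactation) in library 2, median 38.0. CD4 cells held 10.2, 14.2, 13.4 and 21.1 in library 1 and 3.17 (Regression) to 32.2 (Lactation) in library 2, median 10.8. CD8 was higher in each of the 11 samples, by 1.99 on the log2 scale (SE 0.21, edgeR Benjamini-Hochberg adjusted p = 6.85e-07), where 10.4% of 3289 genes were called (5.84% higher, 4.56% lower). NK and CD8 were closer: NK was higher in 9 of 11 samples, by 0.63 (SE 0.15, edgeR Benjamini-Hochberg adjusted p = 0.0021), and without the sample block the same test gave an adjusted p of 0.155.

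In the Cd3e-only gate Ccl5 varied widely between samples. Its library 1 samples held 23.5, 49.6, 109.9 and 159.6 UMIs per 10000 and its library 2 samples 17.4 (HT2) to 86.5 (Lactation), with a median of 47.4. The difference from CD8 was 0.15 on the log2 scale (SE 0.16, edgeR Benjamini-Hochberg adjusted p = 0.679), with Cd3e-only higher in 7 of 11 samples. Dendritic gates were low, at 2.66 and 1.01 per 10000 for Clec9a and 2.23 and 1.31 for Cd209a, against 1.01 and 1.31 in B cells. In the Clec9a gate of library 1, 84 of the 202 Ccl5 UMIs (41.6%) were in 1 cell. Ccl5 was the most evenly spread of the ligands in NK cells, where the top 10% of cells held 32.4% and 33.9% of its UMIs.

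Among the gates, Ccl3 and Ccl4 had their highest pooled level in NK cells in both libraries. Cells outside every gate, whose level is not given here, held more of the UMIs in tagged cells than the NK gate did. For Ccl3 they held 59.6% in library 1 and 46.2% in library 2, against 24.3% and 28.1% in NK. For Ccl4 they held 55.7% and 37.3%, against 24.8% and 32.3% in NK. In NK, Ccl3 stood at 3.65 (HT2), 1.36 (Nulliparous), 2.84 (Gestation) and 2.58 (Lactation) UMIs per 10000 in library 1 and at 2.15 (Involution) to 4.18 (HT2) in library 2, median 3.52. Ccl4 stood at 10.9, 3.80, 8.02 and 5.62 in the library 1 samples and at 7.50 (Gestation) to 14.7 (HT2) in library 2, median 12.4. Ccl3 had a UMI in 26.2% and 36.1% of NK cells and 0.745% and 2.72% of B cells, and Ccl4 in 39.2% and 55.1% against 1.37% and 5.83%. The HT2 sample was the highest for both genes in both libraries.

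Both genes separated NK cells from each T cell gate tested against them. Ccl3 exceeded CD8 in 11 of 11 samples, by 2.83 on the log2 scale (SE 0.12, edgeR Benjamini-Hochberg adjusted p = 3.23e-14), and Ccl4 in 11 of 11, by 2.2 (SE 0.16, edgeR Benjamini-Hochberg adjusted p = 1.33e-10). Against Cd3e+Ncr1+ cells, from which NK cells were not called different for Xcl1, Ccl3 was higher in NK in 10 of 11 samples, by 1.19 (SE 0.18, edgeR Benjamini-Hochberg adjusted p = 2.72e-05). In library 1 alone (0.74, adjusted p = 0.184) and in thinned cells (1.42, adjusted p = 0.352), the same edgeR test did not call Ccl3. Ccl4 was higher in 8 of 11 samples, by 0.68 (SE 0.19, edgeR Benjamini-Hochberg adjusted p = 0.0229), and this call was lost with DESeq2 (adjusted p = 0.12). The Ccl4 level in Cd3e+Ncr1+ cells ran from 1.46 (Nulliparous) to 10.2 (Gestation) in library 1 and from 2.51 (Gestation) to 18.5 (HT2) in library 2. In those highest samples 1 cell held 73.1% of 78 and 39.0% of 267 Ccl4 UMIs.

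T cells without Ncr1 held little Ccl3. Pooled over the samples of a library, its level was 0.227 and 0.382 per 10000 UMIs in CD8, 0.608 and 0.407 in CD4, and 0.621 and 0.590 in Cd3e-only cells, against 0.0894 and 0.201 in B cells. In the CD4 gate a single cell held 42.9% of the 21 Ccl3 UMIs in library 1 and 71.6% of 95 in library 2. Ccl4 was 1.05 and 1.88 in CD8, 2.11 and 1.04 in CD4, and 2.09 and 1.85 in Cd3e-only, against 0.129 and 0.532 in B cells. The differences between Cd3e-only and CD8 did not pass (Ccl3 0.46, SE 0.17, edgeR Benjamini-Hochberg adjusted p = 0.0859; Ccl4 -0.19, SE 0.18, adjusted p = 0.605). For Ccl4 in CD8 against CD4 the libraries pointed apart, at -0.95 in library 1 and 1.60 in library 2 (both 0.94, SE 0.37, edgeR Benjamini-Hochberg adjusted p = 0.133). In library 1 a single cell held 54.8% of the Ccl4 UMIs of the CD4 gate, and in library 2 a single cell held 55.3%.

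**Figure D2:**
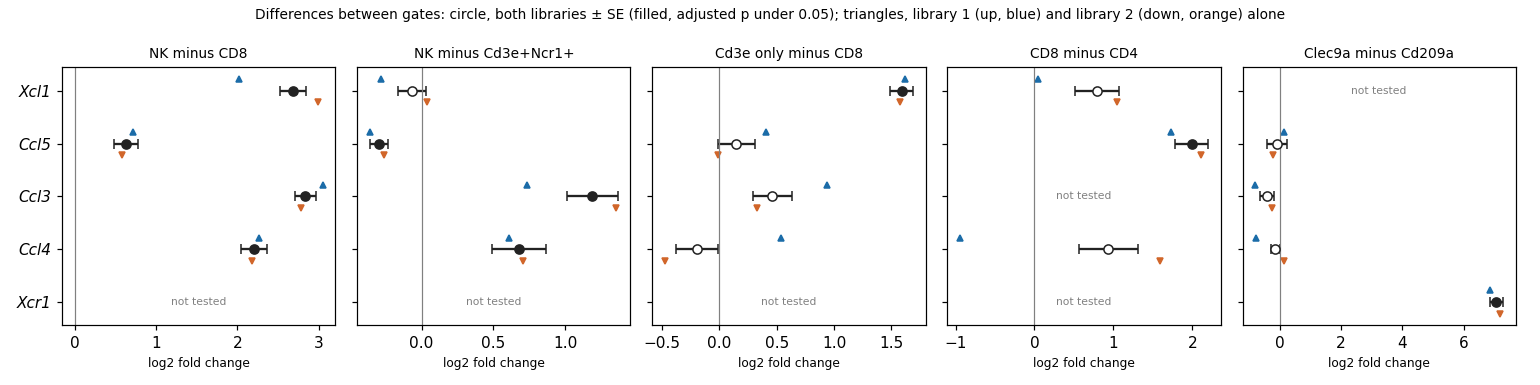
Log2 difference of each member between 2 gates in the 5 contrasts, with both libraries fitted together (circles, bars ± 1 SE, n = 11 samples) and each library alone (triangles). A filled circle is an edgeR Benjamini-Hochberg adjusted p below 0.05; the 4 ligands were higher in NK than in CD8, while Xcl1 was not called between NK and Cd3e+Ncr1+. The Xcr1 circle is no test, since Xcr1 passed the filter on low counts only through the Clec9a gate.

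Ccl3 was seen more often in NK cells with a Ccl4 UMI than in those without. With each cell thinned to 800 UMIs and the samples of a library pooled, a Ccl3 UMI was seen in 31.7% of 385 Ccl4-positive NK cells in library 1, against 10.2% of 1074 Ccl4-negative cells. In library 2 the shares were 34.7% of 501 and 10.6% of 1046. Exact binomial 95% intervals (27.1% to 36.6% against 8.49% to 12.2% in library 1) did not overlap in either library. These intervals treat the pooled cells as independent and leave out differences between samples, and shares within a sample were not compared. Before thinning, NK cells of the Nulliparous sample had the lowest share in library 1 for both Ccl3 (16.1%) and Ccl4 (28.9%). Most cells with either gene did not hold both: in library 1, 122 held both, 110 held Ccl3 alone and 263 held Ccl4 alone. For Xcl1 the libraries differed: it was seen in 34.5% of Ccl4-positive and 35.2% of Ccl4-negative NK cells in library 1, and in 49.5% (interval 45.0% to 54.0%) and 42.6% (39.6% to 45.7%) in library 2. With Ccl3, the shares for Xcl1 were 28.9% of positive and 36.2% of negative cells in library 1 and 43.5% and 45.2% in library 2. Before thinning, HT2 had the highest Ccl4 share (47.0%) and the lowest Xcl1 share (32.0%) of the library 1 samples in NK cells.

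In Cd3e-only cells, by contrast, Xcl1 was seen more often beside the other ligands, again with the samples of a library pooled. An Xcl1 UMI occurred in 43.5% of Ccl4-positive and 23.9% of Ccl4-negative cells in library 1, and in 50% and 19.7% in library 2. Beside Ccl5 the gap was wider, at 36.0% of Ccl5-positive and 5.28% of Ccl5-negative cells in library 1 and 34.7% and 6.64% in library 2. CD8 cells gave the same order, with Xcl1 in 19.4% of Ccl5-positive cells and in 0 of 287 Ccl5-negative cells in library 1 (exact upper limit 1.28%), and in 18.2% and 3.12% in library 2. Samples differed as well: in library 1, before thinning, HT2 was the lowest for Xcl1, Ccl4 and Ccl5 (12.3%, 6.15% and 44.7% of Cd3e-only cells). Lactation was the highest (65.3%, 27.4% and 92.9%). The Cd3e-only gate mixes cell types by its markers, and the samples were pooled. A type that holds all of these ligands, a difference between samples and a cell-by-cell link therefore cannot be told apart here.

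**Figure D3:**
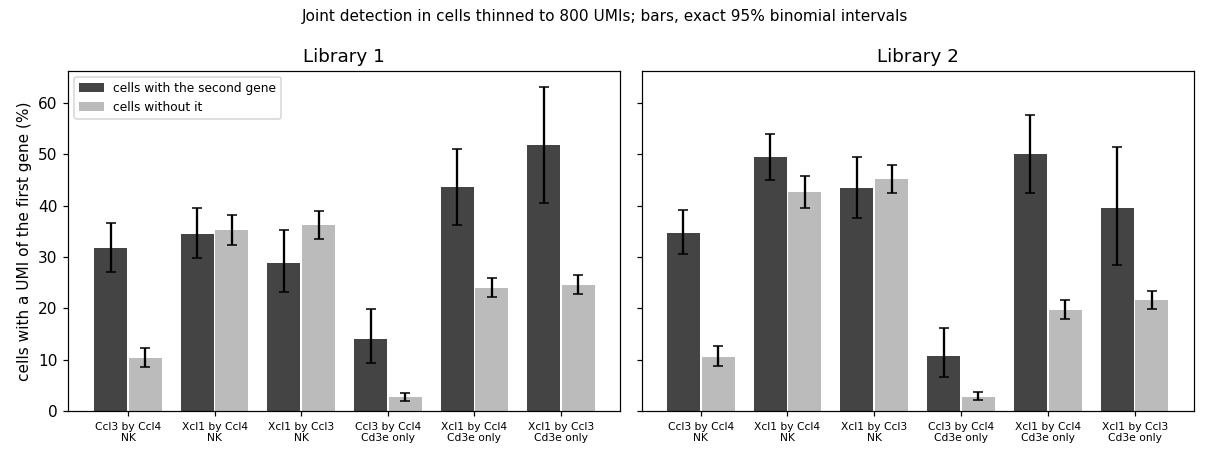
Share of cells with a UMI of the first gene (percent, each cell thinned to 800 UMIs) among cells with and without a UMI of the second gene, in the NK and Cd3e-only gates of each library, with exact binomial 95% intervals. Samples of a library were pooled, and the intervals leave out differences between samples. Ccl3 was more frequent in Ccl4-positive cells in both gates (31.7% against 10.2% in NK cells of library 1), whereas the shares for Xcl1 lay far apart in Cd3e-only cells and close together in NK cells of library 1.

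Xcr1 was confined, among the 7 gates and the B cells measured, almost wholly to the Clec9a gate. Its samples held 3.26 (HT2), 4.08 (Nulliparous), 2.69 (Gestation) and 2.72 (Lactation) Xcr1 UMIs per 10000 in library 1, on 82, 67, 50 and 43 UMIs. In library 2 they held 2.26 (GF) to 3.67 (Involution), with a median of 3.16, on 36 to 153 UMIs. The spread between samples was small, at 3.19 ± 0.65 (SD, n = 4) in library 1 and 3.0 ± 0.54 (SD, n = 7) in library 2, and the Poisson intervals of the lowest and highest library 2 samples ran from 1.79 to 2.82 and from 3.03 to 4.41. A UMI of Xcr1 was found in 56.3% and 62.3% of Clec9a gate cells, against 0.124% and 0.0400% of B cells. Every other gate had 0 to 11 Xcr1 UMIs in a library.

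The Cd209a gate, whose gate gene encodes DC-SIGN, held 2 and 6 Xcr1 UMIs. Its list of type 2 dendritic markers summed to 12 and 20.7 per 10000. Its monocyte and neutrophil markers summed higher in both libraries, to 25.3 and 40.4, and so did its macrophage markers, given below. The gate is called dendritic by its gate gene, and the share of other cell types in it was not tested. The Clec9a to Cd209a ratio of Xcr1 levels was 139 (95% counting interval 38.0 to 1152) in library 1 and 152 (69.5 to 417) in library 2. The fit gave a log2 difference of 7.06 (SE 0.22), which is a description and not a test: Xcr1 passed the filter on low counts only through the Clec9a gate and is itself a known marker of type 1 dendritic cells, so its direction was fixed beforehand. In that contrast 37.4% of the 2914 genes tested were called (17.7% higher, 19.7% lower). Of its UMIs in tagged cells, 58.0% and 74.2% were in the gate and 38.1% and 21.3% outside every gate.

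The same dendritic gates held Ccl3 and Ccl4 without a called difference between them. Ccl4 in the Clec9a gate was 0.596, 1.03, 2.80 and 0.823 per 10000 UMIs in the library 1 samples and 1.83 (Regression) to 7.99 (Lactation) in library 2, and in the Cd209a gate 1.49, 1.79, 3.25 and 2.07 in library 1 and 1.21 (Regression) to 9.11 (Lactation) in library 2. Those Lactation values rest on 15 cells (Clec9a) and 11 cells (Cd209a), with 74.6% and 50.7% of the Ccl4 UMIs in 1 cell. The log2 difference was -0.14 for Ccl4 (SE 0.15, edgeR Benjamini-Hochberg adjusted p = 0.511), -0.40 for Ccl3 (SE 0.22, adjusted p = 0.173) and -0.09 for Ccl5 (SE 0.33, adjusted p = 0.870). Without cells carrying B, macrophage or epithelial markers, Ccl4 was called lower in the Clec9a gate, by -0.97 (edgeR Benjamini-Hochberg adjusted p = 0.0021). Macrophage markers summed to 9.0 and 11.1 per 10000 in the Clec9a gate and 14 and 41.5 in the Cd209a gate, and epithelial markers to 5.48 and 117 in the Clec9a gate, where the highest library 2 sample reached 587. Their part in the Ccl3 and Ccl4 levels was tested only by leaving out those cells. The part of cells with monocyte and neutrophil markers was not tested.

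Ccr1, a receptor for CCL3 and CCL5, was highest in the Cd209a gate, at 0.310 and 0.465 per 10000. NK cells held the highest pooled levels of Ccl3 and Ccl4 among these gates, while Xcr1 and Xcl1 were in different gates.

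Other genes of the pathway were counted from fixed lists. Of all genes tested, 14% were called higher and 14% lower in NK against CD8. In NK against Cd3e+Ncr1+ these shares were 3.26% and 3.3%. In NK against CD8, 8 of 11 tested genes of the cytotoxic program were higher and 2 lower (median log2 difference 1.66, all genes tested 0.00), with Gzma (granzyme A) at 3.16, Klrk1 (the activating receptor NKG2D) at 2.87 and Prf1 (perforin) at 2.54. The 12 genes of that list include transcription factors such as Eomes, Runx3 and Klf2, so its counts are not of cytotoxic molecules alone. Since the NK gate was set on an NK cell gene, a mostly higher list was to be foreseen, and the counts describe the gates. Irf8, on the type 1 dendritic list, was at 3.08 and Itgam (the integrin CD11b), on the type 2 list, at 2.83. Of the immediate early and heat shock list, genes that rise when tissue is digested, 4 of 11 were higher and 2 lower. Of 6 tested other chemokine receptors 1 was higher and 4 were lower, Ccr7, the receptor for homing to lymph nodes, by -3.88. Between NK and Cd3e+Ncr1+ cells, where Ccl3 and Ccl4 were called and Xcl1 was not, 5 of 11 genes of the cytotoxic list were higher in NK and 2 lower. Prf1 was at 1.83 and Eomes, an NK and T cell transcription factor, at 1.32, whereas Cxcr6, a receptor of tissue-resident lymphocytes, was at -1.03. Ccr2, a receptor for monocyte-attracting chemokines, was at 1.60, Itgam at 1.21 and Itgae at -1.27. Genes of the immediate early and heat shock list were higher in NK in 5 of 11 in that contrast, and their part in the Ccl3 and Ccl4 difference was not tested.

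The T cell contrasts gave other counts. Of all genes tested, 5.84% were called higher and 4.56% lower in CD8 against CD4. The shares were 6.64% and 6.38% in Cd3e-only against CD8, and 17.7% and 19.7% in Clec9a against Cd209a. In CD8 against CD4, 7 of 9 tested cytotoxic genes were higher and 0 lower, led by Klrd1 (CD94) at 2.67 and Nkg7 (a granule protein) at 1.67, with Gzma at 1.57, Gzmb at 1.56 and Runx3 (a CD8 lineage transcription factor) at 1.32. With gates set on Cd8b1 and Cd4, the direction of the cytotoxic list was to be foreseen there too. In that contrast 7 of 11 immediate early and heat shock genes were lower, Dusp1 (a MAP kinase phosphatase) by -0.91. In Cd3e-only against CD8, where Xcl1 was called higher and Ccl5 was not called, 4 of 12 cytotoxic genes were higher and 5 lower, with Gzma at 1.73 and Gzmb (granzyme B) at 1.71 but Gzmk (granzyme K) at -2.48 and Eomes at -1.29. Klrk1 was at 1.24, and Cd40lg (the CD40 ligand) had the largest difference of the listed genes, at 2.88. Immediate early and heat shock genes were higher in 5 of 12 and lower in 0. In Clec9a against Cd209a, all 9 tested type 1 dendritic genes were higher, among them Tlr3 (a sensor of double-stranded RNA) at 4.79 and Irf8 (a transcription factor of type 1 dendritic cells) at 3.39, and all 7 tested type 2 genes were lower, Clec10a at -3.90 and Mgl2 at -3.68 (both lectins) among them. Since the gates were set on genes of these dendritic types, the directions of both lists were to be foreseen, and the counts describe the gates. Ifi205, on the type 1 list, was at 4.44, the chemokine gene Ccl9 at -3.24, and 11 of 12 immediate early and heat shock genes were lower in the Clec9a gate.

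Likeness to each member was described by Pearson's r of log2 levels (pseudocount 0.1) over 74 sums of a gate in a sample, among 3002 genes; the sums share libraries and cells' depth, so r is a description. The 5 genes most like Xcl1 were Ctsw (0.944), Gzmb (0.936), Gm19585 (0.928), Cd7 (0.927) and Nkg7 (0.927), and those most like Ccl5 were Nkg7 (0.961), Ctsw (0.956), AW112010 (0.939), Txk (0.936) and Cd160 (0.931). Ccl3 and Ccl4 were each other's nearest gene (0.885), followed for Ccl3 by Itgax (0.777), Lat2, Tyrobp and Sulf2 and for Ccl4 by Itgax (0.737), Mef2a and Lat2. Xcr1 was nearest to Ppt1 (0.943), Txndc16 (0.867), Wdfy4 (0.853), Naaa (0.847) and Cd24a (0.837). Ctsw and Nkg7 stood on the lists of both Xcl1 and Ccl5, and Itgax and Lat2 on those of both Ccl3 and Ccl4.

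Gestation and Lactation were the stages with a named sample in both libraries, and they were compared with the library as a block. The 4 samples leave 1 residual degree of freedom, so the test borrows its spread from all genes. On simulated counts for NK cells it recovered 21.4% of log2 differences of 1, so a missing call says little about differences of that size. Few genes were called: 0.575% of 8005 in NK (0.475% higher, 0.0999% lower), 0.15% of 2662 in Cd3e+Ncr1+ (0.15% higher, 0% lower), 0.392% of 3830 in CD8 (0.104% higher, 0.287% lower), 0.522% of 1723 in CD4 (0.406% higher, 0.116% lower) and 0.229% of 8740 in Cd3e-only (0.0229% higher, 0.206% lower). Of the members, 1 was called, Xcl1 in CD4 cells. Lactation samples of library 2 held fewer than 20 cells in both dendritic gates, so Xcr1 has no stage test; its Clec9a level was 2.69 in Gestation and 2.72 in Lactation in library 1, and 3.40 and 2.52 in library 2, with overlapping Poisson intervals in each library.

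In library 1 the CD4 call rested mostly on 1 cell, whereas in library 2 13 of 57 Lactation cells held an Xcl1 UMI. Xcl1 rose from 0.567 to 7.71 per 10000 UMIs in library 1 and from 0.943 to 3.17 in library 2, a fitted 2.25 on the log2 scale (SE 0.34, edgeR Benjamini-Hochberg adjusted p = 3.97e-08). In the library 1 Lactation sample 1 of 23 cells held 36 of the 38 Xcl1 UMIs, and in the library 2 Lactation sample 1 of 57 held 19 of 53. That library 1 cell had 1 Cd3e, 1 Cd4 and 0 Trac UMIs among 1088, with 15 Ccl5 and 20 Ccl4 UMIs. With the cell of most Xcl1 left out of every sample, a choice made after seeing these counts, Lactation and Gestation held 0.415 and 0.389 per 10000 in library 1, with intervals of 0.0502 to 1.5 and 0.0472 to 1.41. In library 2 they held 2.09 (1.45 to 2.93) and 0.778 (0.611 to 0.977), so the library 2 gap remained beyond counting error and the library 1 gap did not. Xcl1 then failed the filter on low counts and has no test. Other chemokine genes called in CD4 cells rested on single cells in both libraries. Ccl1 was higher in Lactation with 9 and 224 UMIs, each in 1 cell. Cxcl2 was lower, with 46 Gestation UMIs in 1 cell in library 1 and 80 of 90 in 1 cell in library 2. The Xcl1 call was also lost with DESeq2 (2.58, adjusted p = 0.157), without the library block (2.90, adjusted p = 0.783) and with doublet calls kept (2.16, adjusted p = 1.00).

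In Cd3e-only cells, the largest gate, the 4 ligands were all higher in Lactation in both libraries, and none was called. Xcl1 went from 5.89 (interval 5.42 to 6.40) to 9.47 (8.95 to 10.01) per 10000 UMIs in library 1 and from 6.11 (5.78 to 6.45) to 11.2 (10.4 to 12) in library 2, with a log2 difference of 0.78 (SE 0.24, edgeR Benjamini-Hochberg adjusted p = 0.373). Its share of positive cells went from 38.3% to 65.3% in library 1, where the median depth was 1280 and 2080 UMIs, and from 39.2% to 52.1% in library 2 (3061 and 2859 UMIs). Thinned to 800 UMIs per cell, the shares were 28.2% and 39.0% in library 1 and 17.5% and 29.4% in library 2, and in B cells 0 of 127 and 0 of 15 (exact upper limits 2.86% and 21.8%), and 1.13% of 355 and 0 of 14 (upper limit 23.2%). Ccl5 went from 109.9 to 159.6 and from 47.4 to 86.5 (0.70, SE 0.25, edgeR Benjamini-Hochberg adjusted p = 0.63). The differences for Ccl3 (0.65, adjusted p = 0.780) and Ccl4 (0.59, adjusted p = 0.803, both edgeR with Benjamini-Hochberg) were of similar size. The gaps exceeded counting error for Xcl1 and Ccl5, and the spread between samples of 1 stage is known only from 2 libraries.

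Other markers moved with the Cd3e-only samples. Gzma was called higher in Lactation, from 63.4 to 202 per 10000 in library 1 and from 14.5 to 44.5 in library 2 (log2 difference 1.64, SE 0.26, edgeR Benjamini-Hochberg adjusted p = 0.00405), and Klf2, a transcription factor of resting and recirculating T cells, was called lower (-1.19, SE 0.25, adjusted p = 0.0339). The chemokine gene Ccl1 was called lower (-2.19, SE 0.40, edgeR Benjamini-Hochberg adjusted p = 0.0135), the largest difference among the listed genes called here. It rested on few cells: Gestation held 66 Ccl1 UMIs in library 1, 50 of them in 1 cell, and 776 in library 2, 454 of them in 1 cell. The 6 NK and ILC1 markers summed to 17.8 in Gestation and 19.5 in Lactation in library 1, and to 13.5 and 18.0 in library 2. The 6 T cell markers summed to 35.6 and 42.0, and to 32.9 and 37.1. The part of the gate's makeup in the ligand differences was not tested.

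In CD8 cells no ligand was called. Ccl5 went from 67.7 to 83.9 per 10000 UMIs in library 1 and from 38.0 to 83.1 in library 2 (0.64, SE 0.20, edgeR Benjamini-Hochberg adjusted p = 0.223). Xcl1 was higher in Lactation in library 1 (1.54 and 4.30) and lower in library 2 (2.29 and 2.01), and Ccl4 was lower in library 1 (2.55 and 2.11) and higher in library 2 (1.39 and 4.61; edgeR Benjamini-Hochberg adjusted p = 0.249). In NK cells no member was called, with log2 differences of 0.19 for Xcl1 (SE 0.23), -0.07 for Ccl5 (SE 0.22), 0.21 for Ccl3 and 0.08 for Ccl4, with Ccl4 at -0.53 in library 1 and 0.70 in library 2. Klf2 was called lower in Lactation in NK cells (-1.12, edgeR Benjamini-Hochberg adjusted p = 0.00851), as in Cd3e-only cells, and the chemokine gene Cxcl10 higher (3.34, adjusted p = 0.000337) on 3 UMIs in Gestation and 43 in Lactation in library 1, and on 2 and 5 in library 2.

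**Figure D4:**
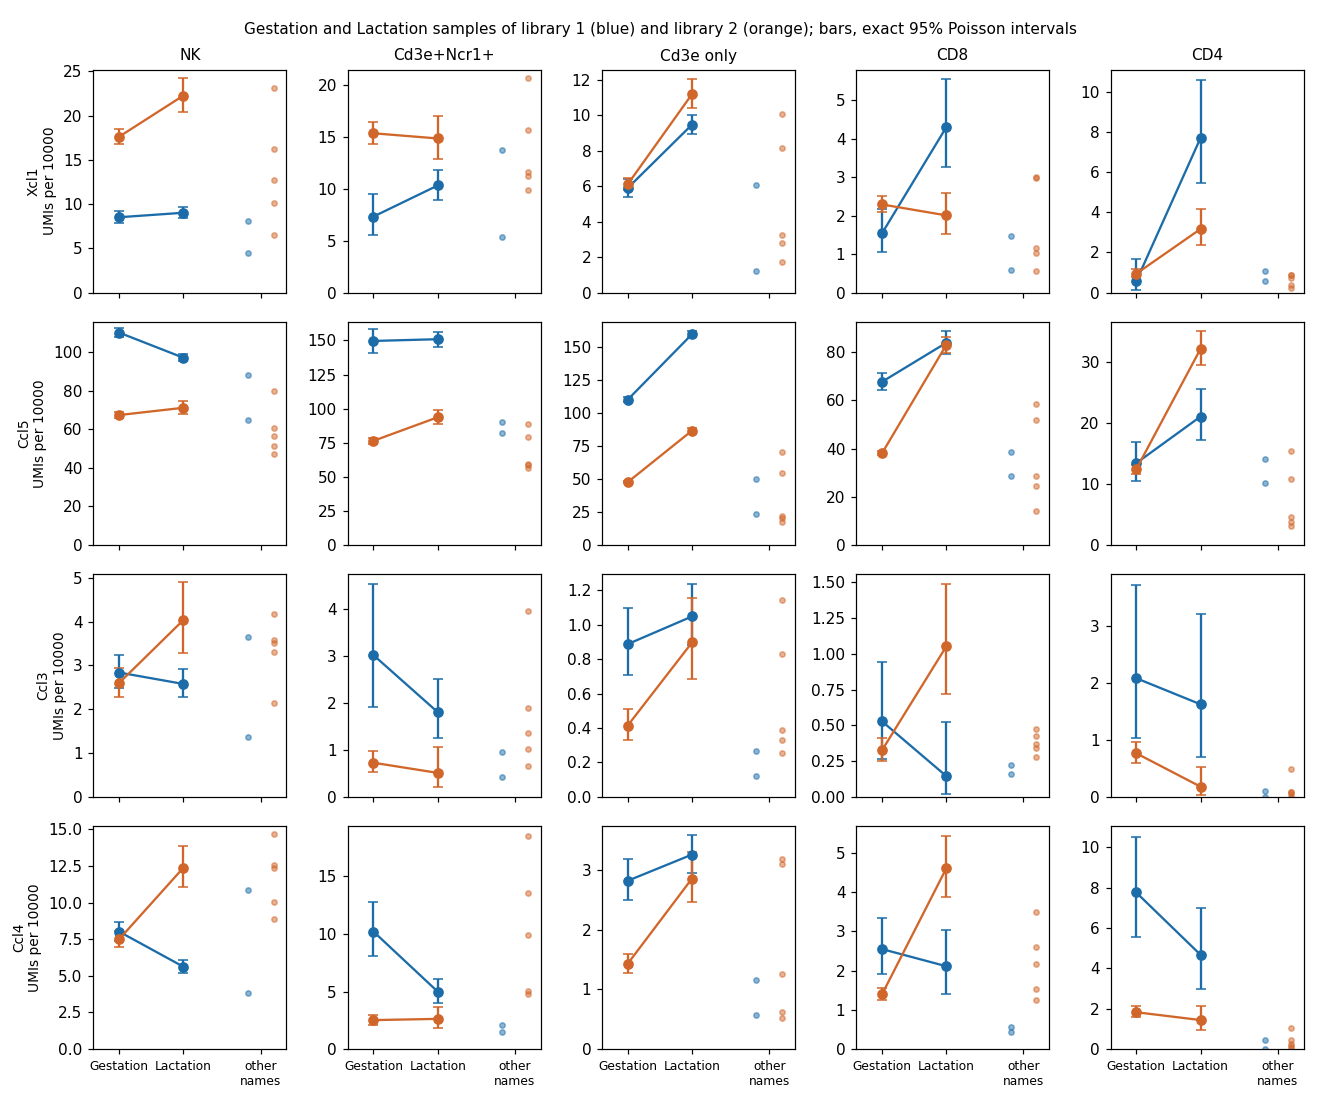
Level of the 4 ligands (UMIs per 10000 UMIs, exact Poisson 95% intervals) in the Gestation and Lactation samples of each library in the 5 lymphocyte gates, with the other tag names as small points. Xcl1 and Ccl5 were higher in Lactation in the Cd3e-only gate of both libraries (Xcl1 5.89 and 9.47 in library 1, 6.11 and 11.2 in library 2), and no ligand was called in NK cells.

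Names with 1 sample allow no test, and their values describe that sample. Regression was the lowest library 2 sample for Xcl1 in NK (6.47, interval 5.70 to 7.32, 119 cells), Cd3e+Ncr1+ (9.94), CD8 (0.556) and Cd3e-only cells (1.70, interval 1.45 to 1.99). In library 1 HT2 was the lowest for Xcl1 in the same 4 gates, at 4.51 in NK (interval 3.96 to 5.10, 338 cells) and 1.20 in Cd3e-only cells (0.890 to 1.58). The summed NK and ILC1 markers were lowest in these samples in Cd3e-only cells too, at 8.33 in Regression and 6.43 in HT2 of library 1, and the part of gate makeup in the low Xcl1 was not tested. In the NK gate itself the same marker list ran from 27.3 to 33.6 in the library 1 samples and from 32.6 to 40.9 in the library 2 samples. Single markers moved more: Itgae (the integrin CD103) was at 0.328 in HT2 against 1.67 to 2.4 in the other library 1 samples, and in library 2 ran from 0.186 in HT2 and 0.385 in Regression to 5.25 in Balb/c. Eomes was at 2.26 in HT2 against 0.804 to 1.60 in the others of library 1, and in library 2 ran from 1.18 in Balb/c to 2.85 in Regression and 3.48 in HT2. Their part in the Xcl1 levels was not tested.

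HT2 was low for Xcl1 but high for Ccl3 and Ccl4 in NK cells. Its Ccl4 level was 10.9 (interval 10.02 to 11.8) in library 1 and 14.7 (13.9 to 15.4) in library 2, the highest of 4 and of 7 samples. The immediate early and heat shock list was also highest in HT2 in that gate, at 23.1 per 10000 against 10.7 to 14.7 in the other library 1 samples and at 41.5 against 24.1 to 36.2 in the other library 2 samples. Its part in the Ccl3 and Ccl4 levels was not tested. Balb/c was the highest library 2 sample for Xcl1 in NK cells (23.1, interval 22.4 to 23.9, 479 cells), and its Klrb1c level there was 1.43 per 10000, against 5.60 to 7.77 in the other library 2 samples. Involution held the least Ccl5 in CD8 cells (14.2, interval 13.5 to 15.0, 229 cells), followed by Regression (24.3).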

How the data were processed

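UMI counts per gene and per hash tag were deposited by the authors as raw, unnormalized counts for 2 pooled 10x Genomics 3′ v3.1 libraries; Cell Ranger 6.1.0 and mm10 (GRCm38) are named in the submitters' processing notes, while the library 1 matrix header names Cell Ranger 4. For the counting annotation, the sources used here give nothing. Barcodes with under 500 UMIs, with under 300 genes, or with over 10% of UMIs from mitochondrial genes were dropped. Doublets were called with Scrublet (scanpy 1.11.5, expected rate 0.08; 7.86% and 6.87% called) and left out, and tags were assigned with Seurat 5.3.0 HTODemux (positive quantile 0.99). All UMIs of the kept cells came to 50906081 and 90109576.

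Gates were set on single UMIs, and counts were summed per tagged sample and gate with at least 10 cells (20 for stages). Sums were tested with edgeR 4.0.16 (TMM, filterByExpr, quasi-likelihood test, Benjamini-Hochberg over all genes tested), with DESeq2 1.42.0 as an alternative (R 4.3.3, Python 3.11.15, scipy 1.17.1). On simulated counts the NK against CD8 fit recovered 104 of 106 genes with a log2 difference of 1, with 9 false calls. The Lactation against Gestation fit in NK recovered 22 of 103 such genes and 72 of 92 with a log2 difference of 2, with 5 false calls. In gate contrasts the sample was the block, since different cells of the same tagged sample gave the 2 sums. In the Lactation and Gestation contrast the library was the block, since replicate 1 of each is from library 1 and replicate 2 from library 2. Samples are not known to be separate animals, so p-values measure the spread between these samples, which may be technical. Thinned values used 800 UMIs per cell, and shallower cells were left out (101 of 1560 and 14 of 1561 NK cells). Alternatives were another tool, no low-count filter, no block, 1 library alone, gates at 2 UMIs, no cells with markers of other types, thinning, doublets kept, another tag rule (a count of at least 5 and 3 times any other tag), at least 30 cells per sum, and each stage replicate left out. Besides the members, up to 6 genes of the fixed lists per contrast were named, those with the largest log2 difference among genes called and of the same sign in both libraries, and the 5 most alike genes per member; Ccr1, as a receptor of the ligands, was named beside them. The results of 1 gene on the likeness and receptor lists are not reported here. The members, gene lists and motifs were chosen with earlier results of these data known. The tag HT4 of library 2, with 1 count, was left out.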

Additional observations from a re-analysis of the deposited data

Results flagged for a closer look

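In 8 of 55 groups of 4 to 7 samples (1 member in 1 gate and library), 1 sample stood far above the others by Dixon's test at the 95% level, a screen that marks some groups by chance alone. Levels are UMIs per 10000 UMIs. For Xcl1 in CD4 cells the Lactation sample was the high one in both libraries, at 7.71 in library 1 (next highest 1.08) with 94.7% of its 38 UMIs in 1 of 23 cells, and at 3.17 in library 2 (next 0.943) with 35.8% of 53 UMIs in 1 of 57 cells. The same library 2 Lactation sample stood out for Ccl5 in CD4 cells, at 32.2 against 15.4, with 30.2% of 539 UMIs in 1 cell. Ccl3 in library 2 was high in the Lactation sample in CD8 cells (1.05 against 0.475, 32 UMIs, 31.3% in 1 cell) and in the Cd209a gate (4.36 against 1.72, 34 UMIs in 11 cells, 52.9% in 1). Ccl3 was also high in the HT2 sample of library 2 in Cd3e+Ncr1+ cells (3.95 against 1.89, 57 UMIs, 52.6% in 1 cell). Ccl5 was high in 2 dendritic groups of library 2, in the Regression sample of the Clec9a gate (2.77 against 1.09, 59 UMIs, 84.7% in 1 cell) and in the GF sample of the Cd209a gate (3.81 against 1.60, 137 UMIs, 56.9% in 1 cell). In each of the 8, a single cell held between 30.2% and 94.7% of the UMIs of the sum.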

How the results depend on the processing

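The calls of Xcl1 (2.02 to 2.98), Ccl3 (2.73 to 3.21) and Ccl4 (2.06 to 2.27) as higher in NK than CD8, of Ccl5 as higher in CD8 than CD4 (1.72 to 2.25) and of Xcl1 as higher in Cd3e-only than CD8 (1.31 to 1.93) kept direction and call under each alternative that gave a value; the CD4 and dendritic gates hold few cells, which limits the rest. The causes of the changes below were not tested. Counts of called genes moved by over 1.5 times as follows. With library 1 alone they were 526 of 1826 (NK against CD8), 96 of 378 (NK against Cd3e+Ncr1+), 9 of 342 (CD8 against CD4), 162 of 926 (Cd3e-only against CD8) and 424 of 1090 (Clec9a against Cd209a), and with library 2 alone 250 of 378. With gates at 2 UMIs, in that order, they were 968, 73, 126, 424 and 663, and thinned to 800 UMIs 261, 12, 9, 114 and 36, with fewer or shallower cells. With no low-count filter 588, 584 and 1936 were called for NK against Cd3e+Ncr1+, CD8 against CD4 and Clec9a against Cd209a, and without the replicate block 134, 161 and, for Cd3e-only against CD8, 375. Without cells carrying other-type markers Clec9a against Cd209a called 604. For Lactation against Gestation, 46 genes were called in NK, 4 in Cd3e+Ncr1+, 15 in CD8, 9 in CD4 and 20 in Cd3e-only. In that order DESeq2 called 0, 1, 0, 1 and 1 (26, 5, 19, 9 and 63 at an unadjusted p below 0.05), and edgeR without the replicate block 0, 1, 0, 1 and 0 (257, 55, 76, 35 and 200 unadjusted). Gates at 2 UMIs gave 2, 1 and 4 in the first 3 and 0 in Cd3e-only; leaving out cells with other-type markers gave 0 in NK, 0 in Cd3e+Ncr1+, 4 in CD4 and 1 in Cd3e-only; thinning gave 2 in NK, 0 in CD8, 3 in CD4 and 12 in Cd3e-only. No filter gave 8, 59 and 58 in Cd3e+Ncr1+, CD8 and Cd3e-only, doublets kept gave 9, 1 and 0 in CD8, CD4 and Cd3e-only, the other tag rule 1 and 0 in Cd3e+Ncr1+ and Cd3e-only, and CD4 without its top Xcl1 cells gave 4. Leaving out 1 stage sample gave 0 to 69 in NK, 5 to 43 in Cd3e+Ncr1+, 1 to 35 in CD8, 0 to 25 in CD4 and 0 to 83 in Cd3e-only.

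Directions turned for members that were not called. Xcl1 in NK against Cd3e+Ncr1+ was 0.033 with no filter, 0.036 in library 2 alone, 0.13 thinned and 0.037 with the other tag rule. In library 1 alone Ccl4 was -0.95 (CD8 against CD4) and 0.54 (Cd3e-only against CD8) and Ccl5 0.15 (Clec9a against Cd209a); in library 2 alone Ccl5 was -0.014 (Cd3e-only against CD8) and Ccl4 0.13 (Clec9a against Cd209a). Ccl5 in Clec9a against Cd209a was 0.074 with doublets kept and 0.077 with the other tag rule, and Ccl4 0.072 with that rule, which also gave, for Lactation against Gestation, 0.021 (Ccl5, NK), -0.10 (Xcl1, Cd3e+Ncr1+), -0.64 (Ccl3, CD8) and 0.26 (Ccl4, CD4); gates at 2 UMIs gave -0.33 for Xcl1 in Cd3e+Ncr1+. Leaving out 1 stage sample gave -0.37 to 0.66 for Xcl1, -0.52 to 0.47 for Ccl5 and -0.35 to 0.50 for Ccl4 in NK; -0.24 to 0.68 for Xcl1, -0.49 to 0.80 for Ccl5, -1.59 to 0.86 for Ccl3 and -1.43 to 0.73 for Ccl4 in Cd3e+Ncr1+; -0.21 to 1.20 for Xcl1 and -1.40 to 1.27 for Ccl3 in CD8; -2.78 to 0.78 for Ccl3 and -1.75 to 0.86 for Ccl4 in CD4; and -0.12 to 1.59 for Ccl5 and -0.00056 to 1.27 for Ccl4 in Cd3e-only. Thinned, Ccl5 in NK of library 1 was 110.7 per 10000 and Xcr1 in Clec9a of library 2 was 2.42. With the entry CT010467.1 left out of the totals, Ccl5 in NK of library 1 was 110.7 and Xcr1 in Clec9a of library 1 was 3.85. That Ccl5 level lay above each library 1 sample in the main totals, of which Gestation was the highest at 110.1. Library 1 levels per 10000 therefore depend on whether this entry is counted, which limits setting them beside library 2. Cd3e+Ncr1+ stages after thinning, CD4 stages at 2 UMIs and the stage contrasts of both dendritic gates were not run, for lack of cells.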
